A study of Mus musculus with 2 samples.

Results

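The type I interferon-stimulated genes are a module of antiviral and regulatory genes, described here by 34 mouse symbols listed by name. The rows of both expression matrices with those symbols were taken, and 33 of the 34 were found among 28692 genes (Mx2 was not analysed here). The values come from single-cell RNA sequencing of MC38 tumour cells, a mouse colon carcinoma line, with 1 library per treatment. The aPD-1 library came from cultures given an antibody against PD-1, a receptor that restrains T cells (clone RMP1-14, 10 µg/mL), and the IgG library from cultures given a control antibody (clone 2A3, 10 µg/mL). What both share is the C57BL/6 albino strain, the dissociation of fresh MC38 tumours into spheroids, growth in a collagen matrix inside a microfluidic chip, and collection on day 6, when tumour cells were sorted by flow cytometry. The stated purpose was to profile the tumour cells that remain once PD-1 has been blocked. The labels name neither the number of animals behind each library nor the markers of the sort.

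Type I interferons are cytokines that bind a receptor made of Ifnar1 and Ifnar2. The kinases Jak1 and Tyk2 then activate a complex that holds Stat2 and Irf9, which binds the interferon-stimulated response element in promoters and switches on a shared set of genes. That set holds sensors of viral RNA and DNA, enzymes that block viral growth, brakes on the signal and Irf7, the factor that amplifies interferon production. In tumours the same genes are known to be induced by interferon from neighbouring cells or by nucleic acids sensed inside the tumour cell.

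Because the response element is what these genes are known to share, the promoters of 6 members are shown first: the 4 core members (defined below) that have a window, the Ifit3 neighbour Ifit3b, and Oas1a. A RefSeq promoter window (GRCm38.p6, 250 bases before to 50 after the gene start) was present for 25 of the 34 listed genes. The letters GAAA, then any pair of bases, then GAAA again, on either strand and with overlaps allowed, were found in a window of 14 of these 25 (56%), against 3.99% of 27025 genes and 3.44% of 32851 windows. The shorter letters TTCNNNGAA, searched on both strands in the same windows, were found for 6 of the 25 (24%), against 9.55% of genes. The stretches below lie upstream of the gene start, read 5′ to 3′ on the strand of the gene, and the capitals mark the matches of the first motif.
Isg15 (chr4:156200819-156201018, minus strand): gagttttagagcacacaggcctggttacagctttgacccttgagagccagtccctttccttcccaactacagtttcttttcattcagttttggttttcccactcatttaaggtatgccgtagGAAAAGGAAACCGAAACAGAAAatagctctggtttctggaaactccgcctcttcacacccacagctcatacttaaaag
Ifit1 (chr19:34640689-34640870, plus strand): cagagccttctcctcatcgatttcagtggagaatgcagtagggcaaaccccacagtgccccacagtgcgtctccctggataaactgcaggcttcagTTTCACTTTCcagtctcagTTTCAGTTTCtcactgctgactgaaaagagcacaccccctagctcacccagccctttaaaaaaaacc
Ifit3 (chr19:34583329-34583528, plus strand): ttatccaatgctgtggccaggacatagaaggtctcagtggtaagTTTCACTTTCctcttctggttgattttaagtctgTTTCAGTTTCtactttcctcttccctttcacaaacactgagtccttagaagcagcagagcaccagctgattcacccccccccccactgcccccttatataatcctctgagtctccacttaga
Ifit3b (chr19:34607757-34607956, plus strand): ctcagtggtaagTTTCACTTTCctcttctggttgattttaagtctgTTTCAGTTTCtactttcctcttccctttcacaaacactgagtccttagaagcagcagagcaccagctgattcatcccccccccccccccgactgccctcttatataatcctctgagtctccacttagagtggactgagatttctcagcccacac
Rsad2 (chr12:26456453-26456652, minus strand): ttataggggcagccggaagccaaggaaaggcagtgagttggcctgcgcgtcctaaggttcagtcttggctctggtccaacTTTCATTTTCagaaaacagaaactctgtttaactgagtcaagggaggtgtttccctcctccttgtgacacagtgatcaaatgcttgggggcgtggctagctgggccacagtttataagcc
Oas1a (chr5:120907526-120907725, minus strand): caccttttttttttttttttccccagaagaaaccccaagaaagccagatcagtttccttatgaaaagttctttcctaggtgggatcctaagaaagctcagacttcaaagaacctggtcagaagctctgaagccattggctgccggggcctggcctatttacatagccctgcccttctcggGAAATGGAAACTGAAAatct

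Isg15 carried 3 overlapping matches, which run together as 1 block of capitals. Ifit1, Ifit3 and Ifit3b carried 2 separate matches each, Rsad2 carried 1, and Oas1a carried 2 that overlap close to the gene start. A match describes letters only. The 14 members with a match had a median correlation with the other members over cells of 0.27, taking the smaller value of the libraries, and the 11 with a window and no match had 0.25. Outside the core, the median fold of the level between high and low cells, described below, was 4.42 for the 10 members with a match and 5.92 for the 11 without, again the smaller value of the libraries.

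The aPD-1 library held 68385785 unique molecular identifiers (UMIs, counted transcripts) and the IgG library 52720076. Cells with at least 5000 UMIs and at most 10% mitochondrial UMIs were kept, which left 3356 cells (median 16577 UMIs) for aPD-1 and 2198 cells (median 20663 UMIs) for IgG. Only 8 barcodes were kept in both libraries, where about 10.0 would be shared if barcodes were drawn from all possible ones. Epithelial markers were close to 0 in the carcinoma line, with 13 UMIs in aPD-1 and 25 in IgG over 7 genes, Krt18 and Cdx2 being at 0 in both. The summed T or NK cell markers stood at 1.45 CPM (UMIs scaled to a common library total, the usual CPM unit) in aPD-1 cells against 1.34 in IgG cells, with Cd3e and Gzmb at 0 in both. Markers of other cell types differed between the libraries: 10 macrophage markers summed to 5.42 CPM in aPD-1 cells against 30.9 in IgG cells, and 8 endothelial markers to 20.5 CPM in aPD-1 cells against 57.2 in IgG cells. The 8 fibroblast markers, led by Dcn and Col3a1, summed to 654 CPM in aPD-1 cells against 962 in IgG cells, and their part in the levels below was not tested. Cells with at least 5 UMIs of the macrophage or of the endothelial markers were 7 in aPD-1 (0.209%) and 29 in IgG (1.32%). Without these cells the ratio of the summed members given below was 0.9599, and the counts past 1.5-fold were again 0 higher and 2 lower.

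UMIs of the module were found in nearly every cell of both libraries, at closely similar summed levels. Free RNA carried the module too: aPD-1 droplets of 1 to 100 UMIs held the members at 4877 CPM, so how many cells expressed them cannot be read from these UMIs, and no such droplets were available for IgG. A cell thinned to 5000 UMIs held a UMI of 8.15 ± 4.08 members in aPD-1 and 8.57 ± 3.95 in IgG (SD over cells), with a highest value of 29 in each. Summed over the 33 members, the level was 5015 CPM in aPD-1 cells against 5252 in IgG cells, a ratio of 0.955 (95% interval 0.9499 to 0.9599). In aPD-1, Ifitm3 and Bst2 held 101391 and 60329 of the 308227 member UMIs, and in IgG 87580 and 45512 of 259546. Together they outweighed all other members, and the sums over all members given below include them. The 6 core members Isg15, Ifit1, Ifit3, Mx1, Rsad2 and Usp18, taken as a short index of the response, summed to 933 CPM in aPD-1 cells against 962 in IgG cells (ratio 0.970, 0.958 to 0.982). The lower core rested on Isg15. Thinned cells held a mean of 4.981 core UMIs in aPD-1 and 5.256 in IgG. Without Isg15 the order reversed, at 2.499 and 2.342 (SD over cells 5.745 and 5.499). Of the 33 members, Ifitm3 (1649.6 CPM in aPD-1, 1772 in IgG) and Ifi27l2a (199.98, 316) had the largest falls in CPM, while 13 had a ratio above 1. With 1 library per treatment no test was possible, and all intervals cover counting error only. In sums over cells, fewer cells that express a gene and less of its RNA per cell cannot be told apart, nor can treatment be told apart from sorting, loading or sequencing of the library.

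**Figure D1:**
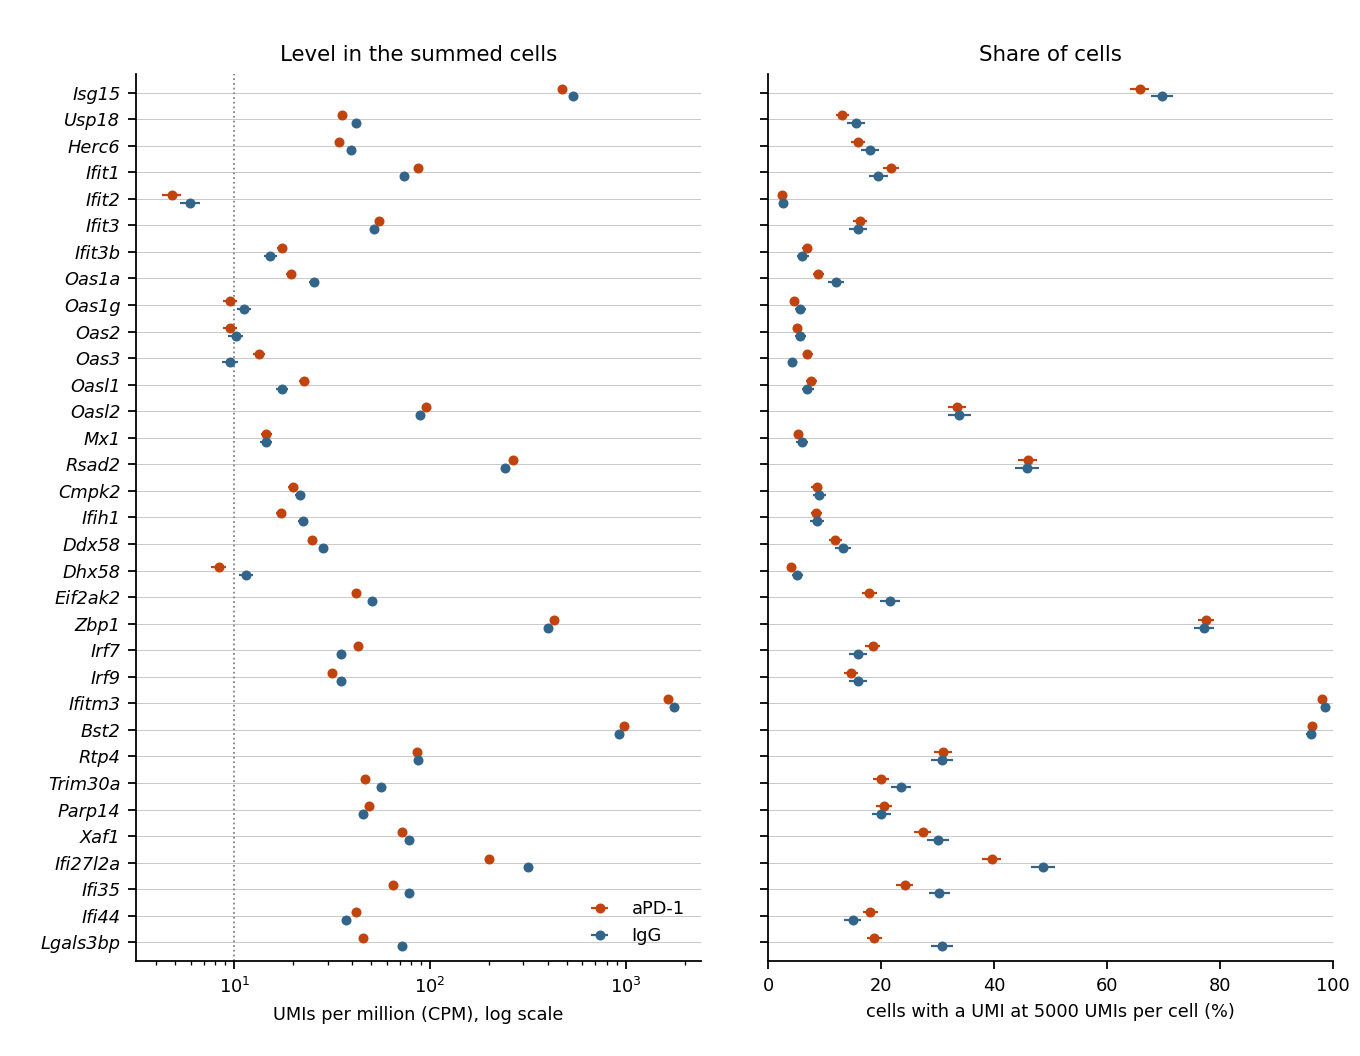
Level of each member in the summed cells (left, CPM on a log scale, dotted line at 10 CPM) and share of cells with a UMI after thinning to 5000 UMIs per cell (right, %), in the aPD-1 and IgG libraries, with exact 95% counting intervals as bars. The library difference is small beside the range between members: Ifitm3 and Bst2 were seen in over 96% of cells of both libraries and Ifit2 in 2.35% and 2.64%.

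Member by member, the difference between the libraries was centred where that of all genes was. Of the 33 members, 30 had a mean of at least 10 CPM, and the 3 below it were Ifit2, Oas2 and Dhx58. The median log2 ratio of these 30 was −0.10, computed on CPM with 1 CPM added, and that of all 6967 genes of this level was also −0.10. The counting interval lay above 1 for 12 members (40.0%), against 19.5% of all genes, and below 1 for 15 (50%), against 50.5%; the ratio itself was above 1 for 13 members, against 32.9% of all genes. Relative to the median of all genes 14 members were higher, where 50% of all genes are by construction. Past 1.5-fold with an interval that excludes 1, no member was higher (0.531% of all genes) and 2 were lower, Ifi27l2a and Lgals3bp (6.67%, against 3.01% of all genes). Those 2 calls depend on the scale. With CPM taken outside ribosomal protein and mitochondrial genes, the median of all genes was −0.00 and neither passed 1.5-fold (log2 −0.56 each). On that scale Oas3 alone was past it on the higher side, against 1.18% of all genes.

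**Figure D2:**
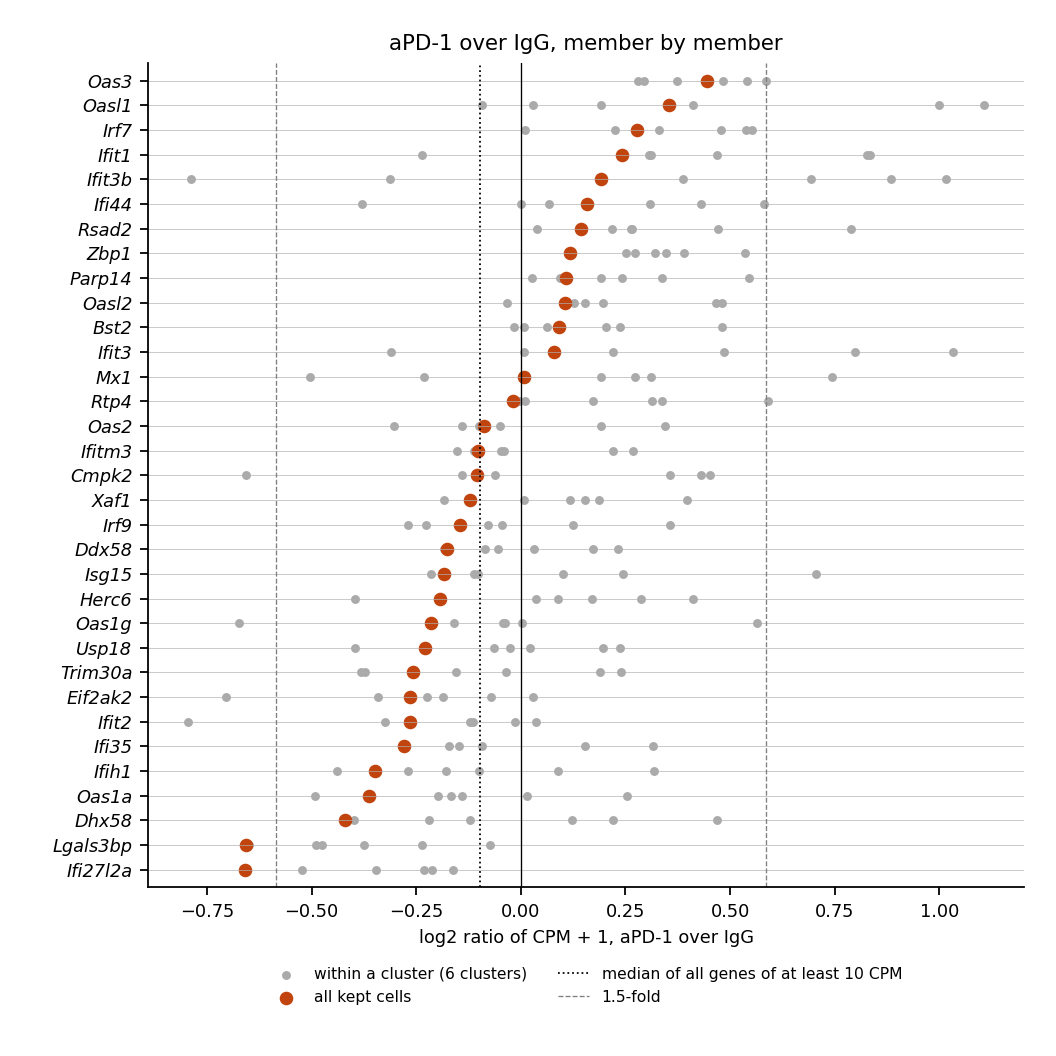
Log2 ratio of CPM + 1, aPD-1 over IgG, for each of the 33 members in all kept cells (large points) and within each of 6 clusters (small points); the dotted line is the median of all genes of at least 10 CPM and the dashed lines mark 1.5-fold. Ifi27l2a and Lgals3bp are the 2 members with every point left of 0, and 5 members (Oas3, Irf7, Rsad2, Zbp1 and Parp14) have every point right of 0.

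The 3 members of the ubiquitin-like branch all had ratio intervals below 1, as did 50.5% of all genes. Isg15 (chr4:156199424-156200818, GRCm38, GENCODE M21), the small protein that is conjugated to others during the response, had 474 CPM in aPD-1 cells against 539 in IgG cells (ratio 0.880, 0.865 to 0.894). At 5000 UMIs per cell it was seen in 65.8% of aPD-1 cells (64.2 to 67.4%) and 69.7% of IgG cells (67.7 to 71.6%), and without thinning in 87.9% and 91.5% of them. Usp18, which removes Isg15 from proteins and dampens the receptor, had 35.6 CPM in aPD-1 cells against 41.9 in IgG cells (ratio 0.850, 0.800 to 0.903), and was seen in 13.1% and 15.5% of the thinned cells. The interferon-induced ligase Herc6 stood at 34.2 CPM in aPD-1 cells against 39.3 in IgG cells. Free RNA in aPD-1 droplets of 1 to 100 UMIs held Isg15 at 535 CPM, above its level in the aPD-1 cells, so a UMI of Isg15 need not come from the cell it is counted in; no cell type that lacks these genes was available for a background share.

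The IFIT proteins, which bind foreign RNA, were the family most often higher in aPD-1, with 3 of its 4 members above 1 in the ratio, against 32.9% of all genes. The 4 genes lie in a row on chromosome 19 between 34550694 and 34650009. Ifit1 had 87.3 CPM in aPD-1 cells against 73.7 in IgG cells (ratio 1.18, 1.13 to 1.24), and was seen in 21.7% of aPD-1 cells (20.3 to 23.2%) and 19.5% of IgG cells (17.9 to 21.2%). Ifit3 had 54.9 CPM in aPD-1 cells against 52.0 in IgG cells (ratio 1.06, 1.004 to 1.114), and Ifit3b, a close copy beside it on chromosome 19, 17.6 CPM in aPD-1 cells against 15.3 in IgG cells (ratio 1.15). The last 500 bases of Ifit3 shared 14.9% of their 50-base words with Ifit3b, so the split of counts between that pair is uncertain. Ifit2 had only 294 UMIs in each library, or 4.78 CPM in aPD-1 cells against 5.95 in IgG cells. Over the 6 clusters described below, Ifit1 and Ifit3 were higher in aPD-1 in 5 each and Ifit3b in 4. Each also had 1 cluster with an interval below 1, which was cluster 3 for Ifit1 and Ifit3b and cluster 1 for Ifit3. The 5% of cells with most Ifit1 held 57.0% of its thinned UMIs in aPD-1 and 59.3% in IgG.

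The oligoadenylate synthetases, which make the messenger that activates RNase L, lay on both sides of 1. Oas3 (chr5:120753098-120777661) had the highest ratio of the module, with 13.3 CPM in aPD-1 cells against 9.53 in IgG cells (log2 ratio 0.45, interval of the ratio 1.25 to 1.57), and was seen in 6.94% of aPD-1 cells and 4.23% of IgG cells. Oasl1, a family member that in mice represses translation of Irf7, followed with 22.6 CPM in aPD-1 cells against 17.5 in IgG cells (ratio 1.29, 1.19 to 1.41). Oas1a lay on the other side, at 19.6 CPM in aPD-1 cells against 25.4 in IgG cells (ratio 0.770, 0.710 to 0.834). Its last 500 bases shared 56.1% of their words with Oas1g, so Oas1a and Oas1g, at 9.55 CPM in aPD-1 cells against 11.2 in IgG cells, may have traded reads. Oasl2 had 95.7 CPM in aPD-1 cells against 88.8 in IgG cells, and Oas2 had 9.53 CPM in aPD-1 cells against 10.2 in IgG cells with an interval across 1.

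Of the other antiviral enzymes, Mx1 was level between the libraries and Rsad2 slightly higher in aPD-1. Mx1, a GTPase that traps viral particles and is inactive in many inbred strains, had 14.6 CPM in aPD-1 cells against 14.5 in IgG cells (ratio 1.005, 0.910 to 1.110), and was seen in 5.33% of aPD-1 cells and 5.91% of IgG cells. Rsad2, also called viperin, converts a nucleotide into a chain terminator. It had 266 CPM in aPD-1 cells against 240.4 in IgG cells (ratio 1.11, 1.08 to 1.13), and was seen in 46.0% of aPD-1 cells and 45.8% of IgG cells. Its neighbour on chromosome 12 and partner in nucleotide supply, Cmpk2, had 20.01 CPM in aPD-1 cells against 21.6 in IgG cells.

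Of the 5 sensors, only Zbp1 had a ratio above 1, where 32.9% of all genes do, so the count does not set the sensors apart. Ifih1, the sensor of long double-stranded RNA known as MDA5, had 17.3 CPM in aPD-1 cells against 22.3 in IgG cells (ratio 0.776, 0.713 to 0.845). Ddx58, the sensor RIG-I, had 25.1 and Dhx58, their regulator LGP2, 8.31 CPM in aPD-1, against 28.4 and 11.5 CPM in IgG. The RNA-activated kinase Eif2ak2 had 42.0 CPM in aPD-1 cells against 50.6 in IgG cells. Zbp1, which senses nucleic acids in the Z form and can start necroptosis, was on the other side at 433 CPM in aPD-1 cells against 399 in IgG cells (ratio 1.08, 1.065 to 1.105), and was seen in 77.6% of aPD-1 cells and 77.2% of IgG cells.

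The transcription factors of the module went opposite ways. Irf7 had 42.7 CPM in aPD-1 cells against 35.0 in IgG cells (ratio 1.22, 1.15 to 1.30), and was seen in 18.5% of aPD-1 cells and 15.9% of IgG cells. Irf9 had 31.7 CPM in aPD-1 cells against 35.2 in IgG cells (ratio 0.901, 0.844 to 0.962). Its span overlaps Rnf31 on the same strand, so some of its UMIs may belong to that gene. The membrane proteins differed by less: Ifitm3, which blocks viral entry, had 1649.6 CPM in aPD-1 cells against 1772 in IgG cells, Bst2, the tether of budding virus, 982 and 921 CPM, and Rtp4, a Golgi chaperone, 85.8 and 87.0 CPM.

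The members furthest from 1 were Ifi27l2a and Lgals3bp, both lower in aPD-1. Ifi27l2a (chr12:103442167-103443680, GRCm38), a small hydrophobic interferon-induced protein, had 199.98 CPM in aPD-1 cells against 316 in IgG cells (ratio 0.632, 0.618 to 0.648), and was seen in 39.6% of aPD-1 cells (37.9 to 41.3%) and 48.6% of IgG cells (46.5 to 50.7%). Lgals3bp (chr11:118392751-118402092), a secreted glycoprotein that binds galectins, had 45.2 CPM in aPD-1 cells against 71.8 in IgG cells (ratio 0.630, 0.599 to 0.662), and was seen in 18.7% of aPD-1 cells (17.4 to 20.1%) and 30.8% of IgG cells (28.9 to 32.8%). Of the other effectors, Ifi35, Trim30a and Xaf1 were lower in aPD-1 with ratios of 0.822, 0.833 and 0.919, and Ifi44 and Parp14 higher with ratios of 1.12 and 1.08.

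The summed difference was not the same in all groups of like cells. Cells of both libraries were clustered without the listed interferon and MHC genes, and 6 of 9 clusters held at least 100 cells of each library. In cluster 5, led by replication genes such as Rrm2 and Tyms, the members summed to 5306 CPM in aPD-1 cells against 4061 in IgG cells (ratio 1.31), and 6 members were past 1.5-fold higher (0.557% of all genes there). In cluster 2, led by mitotic genes such as Cdc20 and Cenpa, they summed to 6164 CPM in aPD-1 cells against 5432 in IgG cells (ratio 1.13), and 8 members were past 1.5-fold higher (1.06% of all genes there), among them Ifit1 at 128 CPM in aPD-1 cells against 71.8 in IgG cells and Rsad2 at 447 and 258 CPM. Cluster 4 was led by Gsn and Lbp, with the fibroblast marker Dcn also among its leading genes. There the members summed to 7295 CPM in aPD-1 cells against 6478 in IgG cells (ratio 1.13). The ratio was below 1 in clusters 0, 1 and 3, at 0.969, 0.959 and 0.983. The libraries filled these clusters differently: cluster 4 held 165 aPD-1 cells and 380 IgG cells, and cluster 1, at 3991 CPM in aPD-1 cells against 4160.5 in IgG cells, held 1041 aPD-1 cells and 251 IgG cells.

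By gene, 5 of the 30 members of at least 10 CPM were higher in aPD-1 in all 6 clusters, against 7.02% of all genes, and 2 were lower in all 6, against 16.2%. Oas3, Rsad2, Zbp1, Irf7 and Parp14 were higher in each, with intervals above 1 in 4, 5, 6, 4 and 2 of them. Ifi27l2a and Lgals3bp were lower in each, with intervals below 1 in 6 and 5 of them. Ifi27l2a in cluster 3, led by hypoxia genes, was at 96.9 CPM in aPD-1 cells against 153 in IgG cells, and in cluster 2 at 272 CPM in aPD-1 cells against 304 in IgG cells. Without cluster 4 neither of those 2 was past 1.5-fold over the remaining cells, at log2 ratios of −0.58 and −0.57. Isg15 was higher in aPD-1 in 3 of the clusters and lower in the other 3, its highest ratio being in cluster 5 (587 CPM in aPD-1, 359 CPM in IgG), so the lower Isg15 of the whole library was not seen in every cluster. The highest module level of any cluster was in cluster 6, at 11317 CPM in 115 aPD-1 cells and 10829 CPM in 80 IgG cells. Its cores were at 4012 and 3999 CPM. Genes that led it included Gadd45a, Trib3 and Chac1, of the DNA damage and integrated stress responses, and A530040E14Rik and AC125149.3. Over cells, the last 2 correlated with the summed members at 0.33 and 0.30 in aPD-1 and 0.27 and 0.22 in IgG. Neither was left out of the clustering, so the module level of cluster 6 may not be independent of how it was built.

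Many members were unevenly spread over the cells of a library. Overdispersion, the variance beyond counting noise divided by the squared mean over cells thinned to 5000 UMIs, was at least 1 in both libraries for 17 of the 30 members of at least 10 CPM (56.7%), against 7.92% of all genes. It was highest for Mx1 (11.7 in aPD-1, 14.2 in IgG), Ifit3b (9.94 and 13.1) and Oasl1 (9.01 and 14.3), ranked by the smaller value of each. The 5% of cells with most Rsad2 held 45.3% of its UMIs in aPD-1 and 44.3% in IgG, with a highest cell of 51 UMIs in aPD-1 and 54 in IgG among 5000. At the other end lay Bst2, which had an overdispersion of 0.313 in aPD-1 and 0.322 in IgG, Ifitm3 0.349 and 0.371, and Irf9 0.533 and 0.411. Over the 6 core members together, the top 5% of cells held 35.3% of UMIs in aPD-1 and 33.0% in IgG, and over all members 17.0% and 16.1%.

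The members varied together from cell to cell. The Pearson correlation of a member with the sum of the other members, on log2 of thinned UMIs plus 1, was at least 0.2 in both libraries for 24 of the 30 members (80%), against 1.08% of all genes with the summed members, and at least 0.1 for all 30 (3.19% of all genes). These correlations run over 3356 aPD-1 cells and 2198 IgG cells, which share a library and its free RNA, and they describe those cells only. Isg15 was highest at 0.63 in aPD-1 and 0.57 in IgG, then Ifit3 at 0.46 and 0.45 and Ifitm3 at 0.49 and 0.44. The lowest were Ifit2 at 0.10 and 0.11, Oas2 at 0.16 and 0.12 and Ddx58 at 0.14 and 0.15. These members held 0 UMIs in most thinned cells. Of all 528 pairs of members, 526 had a correlation above 0 in both libraries and 21 had one of at least 0.3. The median was 0.12 in aPD-1 and 0.11 in IgG. Pairs of other genes were not computed, so these counts of pairs have no background beside them.

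**Figure D3:**
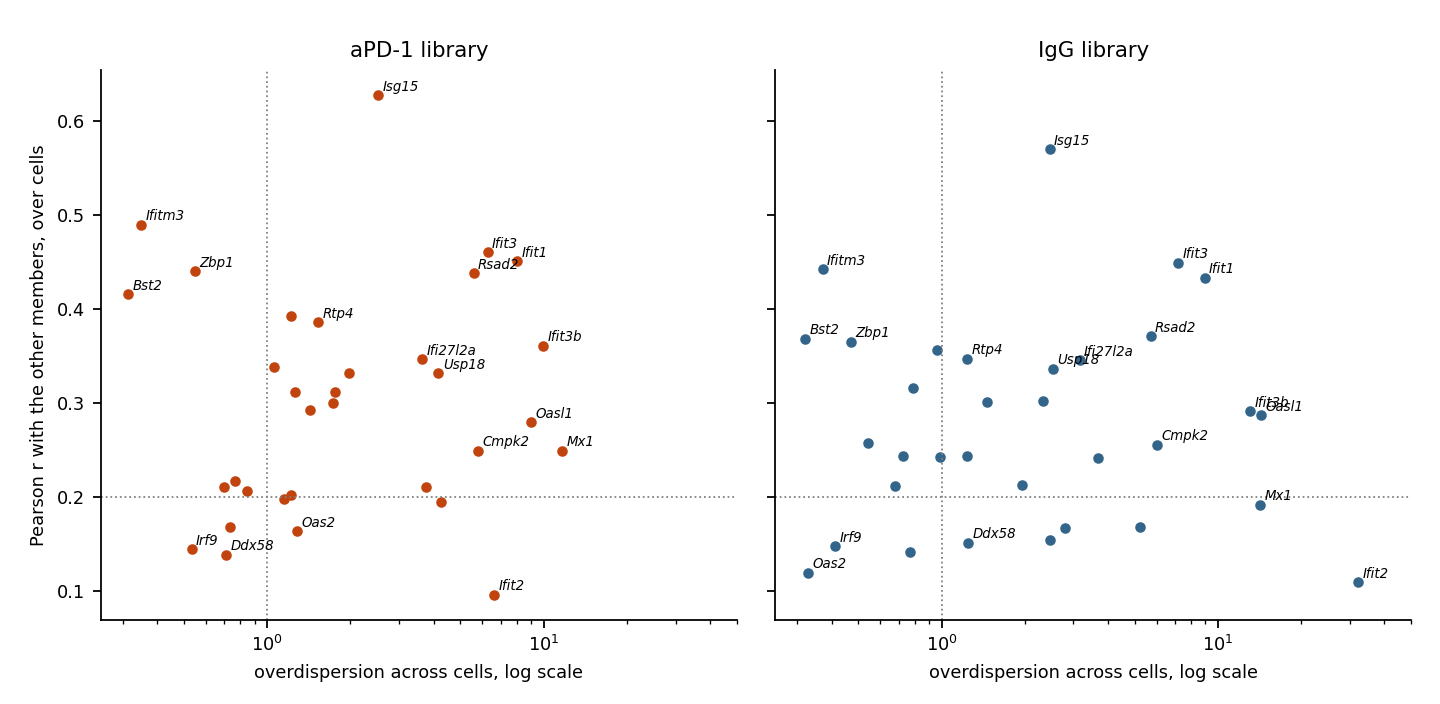
Overdispersion across cells (log scale) against the Pearson correlation with the other members over cells, 1 point per member, in the aPD-1 library (left) and the IgG library (right), with the members discussed in the text labelled; dotted lines mark 1 and 0.2. Isg15 has the highest correlation in each library, Ifitm3, Bst2 and Zbp1 pair a high correlation with low spread, and Mx1, Ifit3b and Oasl1 lie at the right, passed in the IgG library only by Ifit2, which rests on 294 UMIs.

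The tightest pairs were among IFIT genes and Rsad2. Ifit1 and Ifit3 correlated at 0.48 in aPD-1 and 0.53 in IgG, and 297 aPD-1 cells held both, where 119 would if the genes were independent, beside 187 IgG cells where 68.1 would. Ifit1 and Rsad2, on different chromosomes, correlated at 0.55 in aPD-1 and 0.46 in IgG. Rsad2 and its neighbour Cmpk2, which lie head to head on chromosome 12, correlated at 0.34 and 0.35. Ifit3 and Ifit3b correlated at 0.47 and 0.43, a value that shared reads could raise. Only the 2 pairs of Ifit2 with Ifi27l2a and with Oas3 had a correlation below 0 in a library, at −0.02 and −0.03 in IgG.

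Outside the list, the genes that followed the module most closely, by the smaller correlation of the libraries, included chemokines, guanylate-binding proteins and the MHC class I light chain B2m, which interferon-gamma also induces. The first 10 were Cxcl10 (0.46 in aPD-1, 0.37 in IgG), Ly6e (0.40, 0.36), B2m (0.35, 0.36), Gbp2 (0.39, 0.35), Ifi203 (0.36, 0.35), Mnda (0.34, 0.35), Mndal (0.33, 0.32), Iigp1 (0.41, 0.31), Cxcl9 (0.31, 0.30) and Gbp3 (0.30, 0.30). Over whole lists, the summed members correlated with 44 other type I interferon-induced genes at 0.65 in aPD-1 and 0.60 in IgG, and with interferon-gamma response genes at 0.56 and 0.48. They correlated with G2 and mitosis genes at −0.01 in aPD-1 and −0.06 in IgG, with S phase genes at −0.04 and −0.13, with hypoxia genes at −0.10 and −0.12, and with the depth of the cell (log2 UMIs) at −0.15 in both.

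Cells spread over a wide scale of module level. The summed core UMIs of a thinned cell had a median of 2 in aPD-1 and 3 in IgG, a 95th percentile of 18 and 19, and a highest cell of 105 and 153. At least 1 core UMI was seen in 79.7% of aPD-1 cells (78.3 to 81.1%) and 83.2% of IgG cells (81.5 to 84.7%), and at least 3 in 48.2% of aPD-1 cells (46.4 to 49.9%) and 52.3% of IgG cells (50.2 to 54.4%). At least 10 were seen in 449 aPD-1 cells (13.4%, 12.2 to 14.6%) and 309 IgG cells (14.1%, 12.6 to 15.6%), at least 15 in 7.45% and 8.05%, and at least 50 in 0.954% and 0.728%. The aPD-1 share was thus lower at cuts of 1 and 3, with counting intervals that do not overlap, while the intervals overlapped at each cut examined from 6 upward. With 1 library per treatment, these intervals do not measure a difference between treatments. The part of free RNA in the low counts was not tested. Cells lay on both sides of the cut at 10 without a gap: 50 aPD-1 cells and 48 IgG cells had exactly 9, and 62 and 21 had exactly 10.

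**Figure D4:**
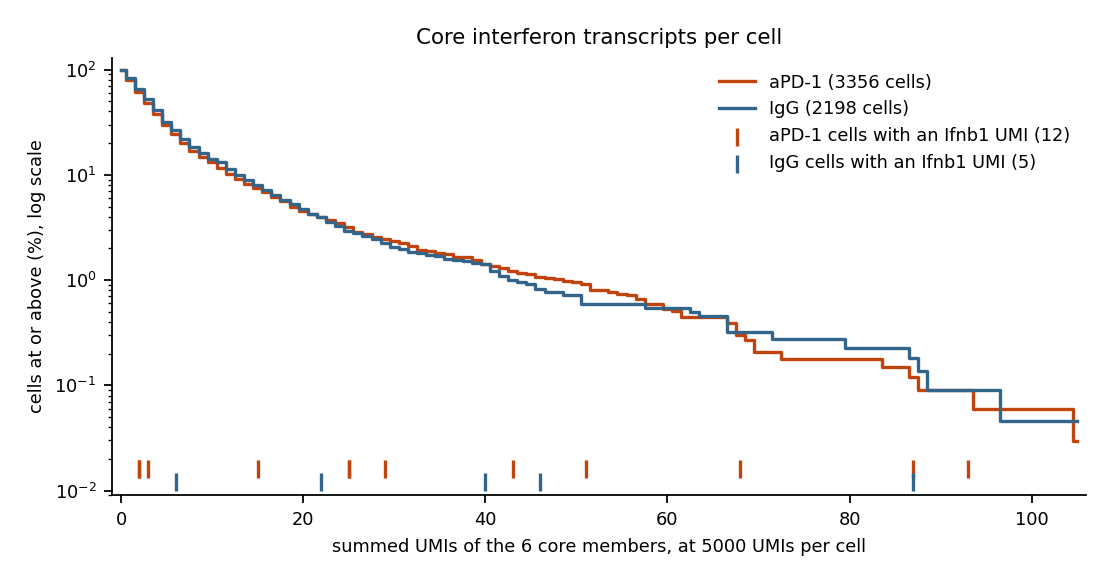
Share of cells (%, log scale) at or above each summed UMI count of the 6 core members after thinning to 5000 UMIs, for 3356 aPD-1 and 2198 IgG cells, with ticks at the counts of the cells that held an Ifnb1 UMI (12 in aPD-1, 5 in IgG). The curves of the libraries run close together, and 9 of the 12 aPD-1 ticks and 4 of the 5 IgG ticks lie at 10 or above.

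The 27 members outside the core were higher at every step of this scale in both libraries, as were 5.96% of all genes of at least 10 CPM outside the core. Cells were binned by their core UMIs as 0, 1 to 2, 3 to 5, 6 to 9 and 10 or more, which held 680, 1060, 800, 367 and 449 aPD-1 cells and 370, 678, 564, 277 and 309 IgG cells. Between the lowest and highest bin, 22 of the 24 members of at least 10 CPM differed by at least 2-fold in both libraries, against 2.26% of 6961 genes outside the core, and 11 by at least 5-fold, against 0.488%. Without the cells of macrophage or endothelial markers, of which the top bin held 1 of 449 aPD-1 cells and 8 of 309 IgG cells, these counts were again 22 and 11. The top bin was shallower than the bin at 0, with a median of 14863 UMIs against 18016 in aPD-1 and 18049 against 20580 in IgG, and the part of depth in the scale was not tested.

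The members differed widely in slope. Ifit3b had 97.8 CPM at 10 or more core UMIs and 0.830 CPM at 0 in aPD-1, and 77.5 and 1.68 CPM in IgG, on only 11 and 15 UMIs in the bins at 0. The core holds Ifit3, whose last 500 bases shared 14.9% of their words with Ifit3b, and the part of shared reads in this slope was not tested. Oasl1 had 105.6 and 5.13 CPM in aPD-1 and 78.2 and 5.61 CPM in IgG, and Cmpk2 83.5 and 4.604 CPM in aPD-1 and 85.6 and 5.39 CPM in IgG. Between these and the flat members lay Rtp4 and Irf7, with a top level 8.55 and 7.15 times that at 0 in aPD-1 and 6.12 and 5.92 times in IgG. The flattest were Bst2, at 1575 and 704 CPM in aPD-1 and 1387 and 742 CPM in IgG, and Ifitm3, at 2633 and 1133 CPM in aPD-1 and 2617 and 1355 CPM in IgG. In the bin at 0, Zbp1 was at 254 CPM in aPD-1 cells against 235 in IgG cells, and Irf9 at 19.4 and 23.3 CPM. That bin holds cells with no core UMI among 5000, many of which may hold some at full depth. Free RNA of the aPD-1 library held Ifitm3 at 1813 CPM, Bst2 at 863 CPM, Zbp1 at 425 CPM and Irf9 at 30.7 CPM, all above their aPD-1 levels in the bin at 0, and its part in those levels was not tested.

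**Figure D5:**
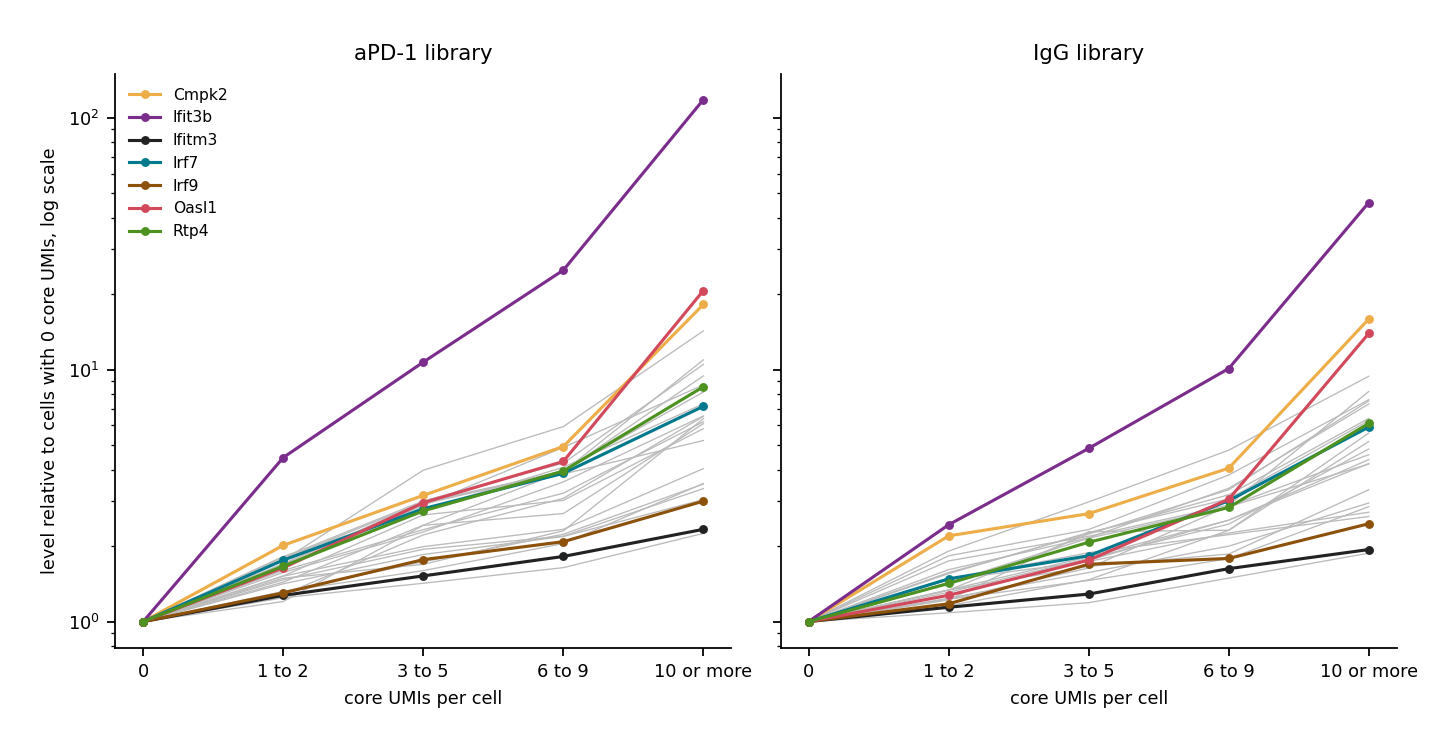
Level of the 27 members outside the core in cells binned by core UMIs, each divided by its level in cells with 0 core UMIs (log scale), in the aPD-1 library (left) and the IgG library (right); 7 members are coloured and the other 20 are grey. All lines go up at every step; Ifit3b, Oasl1 and Cmpk2 are steepest, and Ifitm3 and Irf9 are among the flattest.

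Within the core bins Ifi27l2a, Lgals3bp and Ifi35 were lower in aPD-1 in each of the 5, with intervals below 1 in every one. These are 3 of 24 members, against 11.8% of all genes outside the core. The bins are ranges, so core levels within a bin need not be equal between the libraries. Over the 6 clusters Ifi35 was lower in aPD-1 in 4 and higher in 2. Those 2 were cluster 4, at 129 CPM in aPD-1 against 104 in IgG, and cluster 5, at 95.1 against 85.5. Ifi27l2a had 79.9 CPM in aPD-1 cells against 154 in IgG cells at 0 core UMIs (ratio 0.519, 0.478 to 0.562), and 418 CPM in aPD-1 cells against 650.1 in IgG cells at 10 or more (ratio 0.643, 0.614 to 0.674). Oas3 and Zbp1, 2 of the 24, were higher in aPD-1 in 5 of 5 bins, against 13.8% of all genes, with 4 intervals above 1 each, and Irf7 in 4 of 5, its ratio at 0 core UMIs being 0.992.

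Upstream of the module, Ifnar1 and Jak1 differed less between the top bin and the bin at 0 than Stat2 did. Ifnar1 had 13.4 CPM in the top bin and 12.3 CPM in the bin at 0 in aPD-1, and 17.4 and 12.1 CPM in IgG, and Jak1 132 and 103 CPM in aPD-1 and 149 and 112 CPM in IgG. Stat2 had 42.3 and 7.17 CPM in aPD-1 and 42.1 and 7.86 CPM in IgG. The interferon-induced chemokine Cxcl10 had 3094 and 606 CPM in aPD-1 and 2659.9 and 746 CPM in IgG, and Cd274, which encodes the PD-1 ligand PD-L1, 79.8 and 11.4 CPM in aPD-1 and 63.8 and 12.6 CPM in IgG. The housekeeping gene Gapdh was level, at 2852 and 2790.0 CPM in aPD-1 and 2618 and 2875 CPM in IgG.

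Between the libraries the signalling genes were close, as were most genes. Over the whole of each library Ifnar1 had 14.0 CPM in aPD-1 cells against 14.1 in IgG cells, Stat2 16.6 in both, Ifnar2 36.9 and 44.1, Jak1 120 and 129, Irf1 111 and 125, Irf3 20.5 and 21.0, and Tyk2 0.748 and 0.870 CPM. None of the 8 genes of this list with at least 10 CPM was past 1.5-fold. Over all genes of this level 0.531% were past it higher and 3.01% lower, so a count of 0 among 8 does not set the list apart. Of the negative regulators, Socs1, an inhibitor of Jak kinases, was past it on the higher side, at 78.7 CPM in aPD-1 cells against 47.7 in IgG cells (ratio 1.65, 1.57 to 1.74), while Socs3 had 80.7 CPM in aPD-1 cells against 116 in IgG cells. Of 32 other type I interferon-induced genes of at least 10 CPM, none was past 1.5-fold higher, against 0.531% of all genes. The highest was the exonuclease Isg20, at 35.0 CPM in aPD-1 cells against 23.9 in IgG cells. Past 1.5-fold lower were 2 of the 32, against 3.01% of all genes. These were Ifi203 and Ifi205, at 47.6 and 34.7 CPM in aPD-1 and 72.0 and 56.4 CPM in IgG. The nucleic acid sensors and adaptors held none past 1.5-fold, with Tmem173, which encodes STING, at 24.1 CPM in aPD-1 cells against 33.1 in IgG cells and Mb21d1, which encodes cGAS, at 16.5 and 15.5 CPM.

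Few interferon UMIs were captured in the sorted cells. Of 20 type I and III interferon genes, 18 had 0 UMIs in both libraries, all 14 interferon-alpha genes listed among them. Ifng, the type II interferon, also had 0. Taking 3 cells as the limit that a count of 0 allows, this bounds the share of cells with a captured UMI at 0.0894% in aPD-1 and 0.136% in IgG, and not the share of cells that express the gene. Ifnz, a relative of the family, held 25 UMIs (aPD-1) and 27 UMIs (IgG). Ifnb1, the interferon-beta gene, had 71 UMIs in 12 aPD-1 cells and 11 UMIs in 5 IgG cells, but 51 of the 71 lay in 1 cell. The ratio of Ifnb1 CPM was 5.19 (2.73 to 10.9) with that cell and 1.46 (0.668 to 3.38) without it, so the difference rests on that cell.

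The few cells with Ifnb1 stood high in the module. Their core UMIs after thinning had a median of 27 in aPD-1 and 40 in IgG, against 2 and 3 in the cells without Ifnb1, and 9 of the 12 aPD-1 cells (75%) and 4 of the 5 IgG cells (80%) had at least 10, against 13.2% and 13.9%. The cells with over 1 Ifnb1 UMI, 4 in aPD-1 and 3 in IgG, had between 25 and 93 core UMIs in aPD-1 and between 40 and 87 in IgG. Of the cells with a single Ifnb1 UMI, 3 of 8 in aPD-1 had 2 or 3 core UMIs beside a library median of 2. In sum the Ifnb1 cells held Isg15 at 2847 CPM in aPD-1 cells against 2020 in IgG cells, and Rsad2 at 1954 CPM in aPD-1 cells against 2963 in IgG cells. Empty aPD-1 droplets held 14 Ifnb1 UMIs among 4239974, so a single UMI in a cell can come from free RNA.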

How the data were processed

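The values are whole-number UMI counts per gene and cell barcode, deposited by the authors as unnormalised matrices. Per the file headers they came from Cell Ranger 3.0.2. Per the submitters' processing notes, the build was mm10 and Seurat 2.1.0 was among the tools; no source used here names the annotation release. The deposited aPD-1 matrix lists 737280 barcodes, while the IgG matrix lists 4351, none under 500 UMIs, so free RNA could be read in aPD-1 only.

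Barcodes with at least 5000 UMIs and at most 10% mitochondrial UMIs were kept. No doublet caller was run and none were removed. UMIs were summed over cells of a library to CPM, and log2 ratios used a pseudocount of 1 CPM. Genes with a mean of at least 10 CPM over the libraries formed the background. Shares, spread and correlations used cells thinned at random to 5000 UMIs. Intervals are exact at 95%: Poisson for CPM, conditional binomial for ratios and Clopper-Pearson for shares. Clusters came from Leiden on 30 components of 2000 variable genes (15 neighbours, resolution 0.5). The scripts used Python 3.11.15, numpy 2.4.6, scipy 1.17.1, pandas 2.3.3, scanpy 1.11.5 and leidenalg 0.10.2. The fold rule and ratio interval were tested on simulated totals with counting noise only. Spread, correlation and thinning were tested on simulated cells. Clustering, core bins and the promoter search were not tested on simulated data.

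The members and gene lists were chosen with earlier results of these data known. Full values are given for the core members, the members past 1.5-fold and the extremes of ratio, correlation and spread, and other genes are given by role. Gene positions follow GENCODE M21 (GRCm38) and promoters RefSeq. Alternatives covered depth floors, a ceiling on UMIs, the mitochondrial limit, equal weighting of cells, other scales, the level filter, the pseudocount, thinning depth, rank correlation and single clusters. A gene of the signalling list is not reported here.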

Additional observations from a re-analysis of the deposited data

Results flagged for a closer look

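Barcodes outside the kept cells also held the module. Barcodes of at least 5000 UMIs with over 10% mitochondrial UMIs had the 33 members at 5419 CPM for 81 aPD-1 barcodes, against 5046 CPM for 89 IgG barcodes. Barcodes of at least 500 but under 5000 UMIs with over 10% mitochondrial UMIs had them at 3647 CPM for 669 aPD-1 barcodes, against 1966 CPM for 1439 IgG barcodes. Outside mitochondrial genes those levels were 8243 CPM (aPD-1) and 5862 CPM (IgG). In the same range of UMIs with at most 10% mitochondrial UMIs the order was the other way, at 6534 CPM for 344 aPD-1 barcodes, against 8478 CPM for 625 IgG barcodes. The 515843 aPD-1 barcodes of 1 to 100 UMIs had them at 4877 CPM, beside 5015 CPM in the kept aPD-1 cells. In these droplets Rsad2 was at 142 CPM, beside 266 CPM in the kept cells. The IgG matrix lists no such barcodes, so the free RNA of the libraries could not be compared.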

How the results depend on the processing

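The ratio of the summed members, 0.955, was 0.913 in cells of at most 40000 UMIs, 0.972 at 5% mitochondrial UMIs, 0.937 with cells weighted equally, 0.977 without cluster 4 and 0.948 without cluster 6. It was above 1 on CPM without ribosomal protein and mitochondrial genes (1.02) and over the median ratio of all genes (1.02), and it was 0.969, 1.13, 0.983, 1.13 and 1.31 within clusters 0, 2, 3, 4 and 5. The direction of the sum thus differed between scales and between clusters. Members past 1.5-fold higher, 0 in the report, were 1 without ribosomal and mitochondrial genes (1.18% of all genes there), 8 in cluster 2 (1.06%), 1 in cluster 4 (1.72%) and 6 in cluster 5 (0.557%). Members past 1.5-fold lower, 2 in the report, were 0 on both other scales, in clusters 0, 1, 2 and 5 and without cluster 4. In those settings 1.52 to 3.08% of all genes were past it lower. In cluster 3 there were 4 such members (4.48% of all genes there) and in cluster 4 there was 1 (3.23%). Thinned to 2000 UMIs, Isg15 was seen in 43.8% of aPD-1 cells and 48.1% of IgG cells, at least 10 core UMIs in 3.72% and 4.23%, and 13 members reached a correlation of 0.2. The share of all genes that reached it at that depth was not computed. At 10000 UMIs the shares were 80.3% and 84.3% for Isg15 and 27.5% and 29.0% for the core. Over 18 settings the log2 ratio stayed below 0 for Ifi27l2a (−0.81 to −0.16) and Lgals3bp (−0.76 to −0.07), and above 0 for Oas3, Rsad2, Zbp1, Irf7 and Parp14. The settings that drop clusters 4 and 6, and the gradient without marker-bearing cells, were chosen after seeing the data. No paired analysis was possible because each treatment has 1 library, which also leaves the spread between cultures unmeasured.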
